A study of Homo sapiens with 8 samples.

Results

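Of the 18955 genes in the deposited count table, 10 were examined as a group: *CADM3*, *SESN3*, *CDA*, *PLAC8*, *CNN3*, *NPTX2*, *HBE1*, *ASS1*, *PKIB* and *YKT6*. They were chosen by measured values of these data. *CADM3*, *SESN3*, *CDA*, *PLAC8* and *CNN3* (5 genes) were chosen by their level in cells selected with JQ1+palbociclib against cells selected with JQ1 alone, and 5 (*NPTX2*, *HBE1*, *ASS1*, *PKIB* and *YKT6*) because they marked subsets of cells within JQ1+palbociclib. Differences of the first kind, and sharing of cells within JQ1+palbociclib, are therefore given as descriptions without a test.

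The data were single-cell RNA-seq of SUM159, a triple-negative breast cancer cell line carrying a DNA barcode library. There was 1 library for each of pre-treatment, DMSO, paclitaxel, palbociclib, JQ1+paclitaxel and JQ1+palbociclib cells, and 2 libraries of JQ1 cells, JQ1-A from the paclitaxel experiment and JQ1-B from the palbociclib experiment. JQ1 was given at 100 nM, palbociclib at 160 nM and paclitaxel at 0.6 nM for up to 18 passages, and cells of parallel cultures, of which JQ1+palbociclib lost one, were mixed for capture, so that the cultures within a library cannot be told apart. The palbociclib experiment had no vehicle library of its own. Libraries held 459 to 1024 cells and 10621159 to 24240835 unique molecular identifiers (UMIs), with a median of 20664 to 22503 UMIs per cell. Median mitochondrial shares ran from 3.72% in paclitaxel to 7.18% in JQ1+palbociclib. The line's markers were present in every library. *VIM* was at 3279 to 4502 UMIs per 1000000 UMIs of a library (CPM) and *KRT18* at 313 to 669 CPM. *ESR1* and *PGR* did not pass 0.139 CPM, and *CDH1* was not in the table used here. The transcript of the third receptor, *ERBB2*, was detected in every library, at 5.32 CPM in the lowest. Of 10 markers of immune cells, endothelial cells and neurons, 5 were in the table, and the highest was the neuronal *SYT1*, at 1.05 to 3.19 CPM. With 1 library per condition, the intervals below are exact 95% Poisson or binomial intervals that cover counting error only.

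JQ1 displaces BET proteins, which read acetylated chromatin, from promoters and enhancers. Palbociclib inhibits the cyclin D-dependent kinases that carry cells from G1 into S phase, and paclitaxel stabilises microtubules. The 10 genes do not form a pathway. *SESN3* encodes a sestrin, a stress-induced protein that restrains mTORC1. *CADM3* encodes a nectin-like adhesion molecule of the immunoglobulin superfamily, *CNN3* an actin-binding calponin, and *PLAC8* a small cysteine-rich protein. *CDA* (cytidine deaminase, which salvages pyrimidines and inactivates cytidine analogue drugs) and *ASS1* (argininosuccinate synthase, of arginine synthesis) are metabolic enzymes. *PKIB* encodes an inhibitor of protein kinase A, *YKT6* a SNARE of Golgi transport, *NPTX2* a secreted pentraxin known from synapses, and *HBE1* the embryonic epsilon globin of red cells.

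RefSeq promoter windows, from 250 bases before to 50 after a gene start (GRCh38.p14), matched 9 of the 10 members, all but *HBE1*, with 14 windows in all. The windows of 4 members are printed because the level comparisons that follow turn on them: *SESN3* and *CDA*, the members highest and lowest against JQ1 alone, and *ASS1* and *PKIB*, the pair with the largest fitted differences with JQ1 among members picked on cells. Both strands were searched for the E-box CACGTG (the site of MYC and its relatives), the forkhead site GTAAACA, the TATA element TATAAA, the CCAAT element, the GC box GGGCGG, the AP-1 site TGANTCA and the cyclic AMP response element TGACGTCA, and capitals mark the matches. Windows run 5′ to 3′ on the gene's strand.
SESN3, chr11:95232426-95232725, minus strand: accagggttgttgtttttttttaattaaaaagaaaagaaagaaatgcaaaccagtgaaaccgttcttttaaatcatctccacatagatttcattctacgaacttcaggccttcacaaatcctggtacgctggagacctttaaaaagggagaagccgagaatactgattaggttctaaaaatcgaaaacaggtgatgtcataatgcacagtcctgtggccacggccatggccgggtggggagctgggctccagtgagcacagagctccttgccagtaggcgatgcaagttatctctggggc
CDA, chr1:20588847-20589146, plus strand: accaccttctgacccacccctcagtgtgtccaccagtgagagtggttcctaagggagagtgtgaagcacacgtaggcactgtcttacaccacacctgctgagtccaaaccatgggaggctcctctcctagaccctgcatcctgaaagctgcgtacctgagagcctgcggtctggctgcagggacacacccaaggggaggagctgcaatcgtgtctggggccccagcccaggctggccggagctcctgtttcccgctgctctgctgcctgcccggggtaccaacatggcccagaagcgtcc
ASS1, chr9:130444711-130445010, plus strand: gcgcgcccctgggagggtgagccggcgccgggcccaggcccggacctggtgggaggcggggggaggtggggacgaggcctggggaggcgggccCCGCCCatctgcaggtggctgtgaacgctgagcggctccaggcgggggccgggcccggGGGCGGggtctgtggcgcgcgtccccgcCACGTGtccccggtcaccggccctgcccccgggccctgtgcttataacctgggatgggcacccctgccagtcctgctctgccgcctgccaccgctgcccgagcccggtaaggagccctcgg
PKIB, chr6:122652479-122652778, plus strand: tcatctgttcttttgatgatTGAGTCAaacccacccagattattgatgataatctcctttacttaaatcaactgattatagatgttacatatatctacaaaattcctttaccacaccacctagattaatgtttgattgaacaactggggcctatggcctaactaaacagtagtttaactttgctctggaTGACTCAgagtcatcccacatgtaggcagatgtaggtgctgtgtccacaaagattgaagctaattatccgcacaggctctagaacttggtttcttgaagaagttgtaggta

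The *SESN3* and *CDA* windows, and that of *CADM3*, held none of the 7 motifs. The *ASS1* window shown, the second of 2 for this gene, held an E-box starting 71 bases before the gene start, with GC boxes at 157 and 99 bases before it. The other *ASS1* window held GC boxes and no E-box. The *PKIB* window, the third of 3 for this gene, held AP-1 letters at 230 and 61 bases before the start. Of the 14 windows, 2 held an E-box (a window each of *ASS1* and *PKIB*), against 7.26% of all 35116 windows in the table, and 1 held AP-1 letters, against 7.71%. GC boxes were found in 8 of the 14 windows (45% of all) and CCAAT in 4 (34.6% of all), and the forkhead (3.42% of all), TATA (11.5%) and cyclic AMP (1.85%) letters in none. No match of a motif overlapped that of another in the windows shown. Such matches describe letters in a window and are not evidence of binding.

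*SESN3* lies on the minus strand at chr11:94898677-94965705 (hg19, also called GRCh37, as are all gene positions here). Its level was 0.284 CPM in pre-treatment cells (4 UMIs), 0.942 CPM in DMSO, 0.715 CPM in paclitaxel, 7.60 CPM in JQ1-A, 10.8 CPM in JQ1+paclitaxel, 15.9 CPM in palbociclib, 6.65 CPM in JQ1-B, with 32.6 CPM in JQ1+palbociclib. The 3 libraries with neither JQ1 nor palbociclib were all below 1 CPM, and the 5 others were all above 6 CPM. Among the 4572 genes that reached 20 CPM in JQ1+palbociclib, JQ1-A or JQ1-B, *SESN3* had the largest ratio to the nearer JQ1 library, 4.29 (interval 3.54 to 5.23), ahead of Z83851.1 at 3.85 and *CADM1* at 3.59. Against palbociclib alone the ratio was 2.05 (1.78 to 2.37).

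Within each library, cells were thinned at random to 10000 UMIs, so that depth was equal, and the cells with a UMI of the gene were counted. *SESN3* was seen in 27.5% of JQ1+palbociclib cells (24.7 to 30.4), in 14.1% of palbociclib cells (11.6 to 17.0), and in 7.74% and 6.38% of JQ1-A and JQ1-B cells. In pre-treatment cells the share was 0.341% (0.0413 to 1.23). With all UMIs the shares in JQ1+palbociclib and pre-treatment were 47.8% and 0.664%. No cell type lacking a gene was present in these libraries, so the share given by free RNA was not estimated.

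*CADM3* (chr1:159141399-159173103, plus strand) was at 1.99 CPM in pre-treatment, 2.17 CPM in DMSO, 2.97 CPM in paclitaxel, 14.1 CPM in JQ1-A, 20.6 CPM in JQ1+paclitaxel, 15.2 CPM in palbociclib, 4.78 CPM in JQ1-B, with 24.5 CPM in JQ1+palbociclib. JQ1+palbociclib held the highest value, but as a ratio the JQ1 libraries differed from each other more than JQ1-A differed from JQ1+palbociclib. The ratio was 5.13 (4.13 to 6.42) to JQ1-B and 1.74 (1.49 to 2.03) to JQ1-A, so that *CADM3* ranked 36th of the 1945 genes above both JQ1 libraries. The share of thinned cells with a UMI was 20.5% in JQ1+palbociclib (18.0 to 23.2; 34.2% with all UMIs), 16.5% in JQ1+paclitaxel and 12.3% in JQ1-A, and lower in JQ1-B (3.66%) and pre-treatment (2.04%). Its paralog *CADM1*, which no rule on these members used, was at 21.9 CPM in JQ1+palbociclib against 4.39 CPM in JQ1-A, 6.11 CPM in JQ1-B and 2.24 CPM in palbociclib. *CADM2* and *CADM4* did not pass 2.22 CPM in any library.

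*HBE1* (chr11:5289575-5526882, minus strand) was at 87.0 CPM in pre-treatment, 58.8 CPM in DMSO, 33.8 CPM in paclitaxel, 60.0 CPM in JQ1-A, 56.5 CPM in JQ1+paclitaxel, 82.3 CPM in palbociclib, 66.1 CPM in JQ1-B, with 161 CPM in JQ1+palbociclib. It was picked for its differences between cells, and its level in JQ1+palbociclib was also the highest of the 8, 2.44 times that of JQ1-B (2.3 to 2.60) and 1.96 times that of palbociclib (1.84 to 2.09). Thinned shares were 53.0% of cells in JQ1+palbociclib (49.8 to 56.2; 65.1% with all UMIs), 44.8% in pre-treatment and 25.8% in paclitaxel, the lowest. The other globins were low. *HBG2*, whose annotated span overlaps that of *HBE1* on the same strand, reached 7.76 CPM in JQ1+palbociclib against 2.26 to 4.40 CPM elsewhere. Whether reads of *HBE1* were counted for *HBG2* was not tested. *HBA1* did not pass 0.697 CPM.

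*CDA* (chr1:20915579-20945396, plus strand) was at 89.9 CPM in pre-treatment, 104 CPM in DMSO, 59.8 CPM in paclitaxel, 30.8 CPM in JQ1-A, 14.6 CPM in JQ1+paclitaxel, 52.4 CPM in palbociclib, 38.5 CPM in JQ1-B, with 7.84 CPM in JQ1+palbociclib. The 4 libraries with JQ1 lay below the 4 without it. JQ1+palbociclib was lowest, at 0.254 times the level of JQ1-A (0.214 to 0.301) and 0.204 times that of JQ1-B (0.173 to 0.239), the second strongest deficit of the 1642 genes below both JQ1 libraries, after *SPANXC* at 0.0572. A UMI of *CDA* was found in 6.56% of thinned cells (5.09 to 8.31; 12.4% with all UMIs), against 45.7% of pre-treatment and 50.6% of DMSO cells.

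*PLAC8* (chr4:84011201-84058228, minus strand) was at 49.0 CPM in pre-treatment, 55.5 CPM in DMSO, 32.7 CPM in paclitaxel, 23.9 CPM in JQ1-A, 49.5 CPM in JQ1+paclitaxel, 47.0 CPM in palbociclib, 23.3 CPM in JQ1-B, with 7.96 CPM in JQ1+palbociclib. The JQ1 libraries differed little from each other, and JQ1+palbociclib was at 0.341 times the level of JQ1-B (0.287 to 0.404). The value in JQ1+paclitaxel was 2.08 times that of JQ1-A (1.83 to 2.36). Shares of thinned cells were 6.05% in JQ1+palbociclib (4.64 to 7.74; 11% with all UMIs), 14.4% in JQ1-B and 24.2% in JQ1+paclitaxel.

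*CNN3* (chr1:95362505-95392779, minus strand) was at 52.3 CPM in pre-treatment, 67.6 CPM in DMSO, 61.7 CPM in paclitaxel, 35.0 CPM in JQ1-A, 55.9 CPM in JQ1+paclitaxel, 31.5 CPM in palbociclib, 44 CPM in JQ1-B, with 17.5 CPM in JQ1+palbociclib. Its ratio to JQ1-A was 0.50 (0.440 to 0.568), seventh from the lowest, with *H2AFJ* just before it at 0.497 and *TUBA1B* just after at 0.537. Of its paralogs, *CNN2* was at 59.4 CPM in JQ1+palbociclib and 47.2 to 63.9 CPM in the other libraries, and *CNN1* did not pass 0.0942 CPM.

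**Figure D1:**
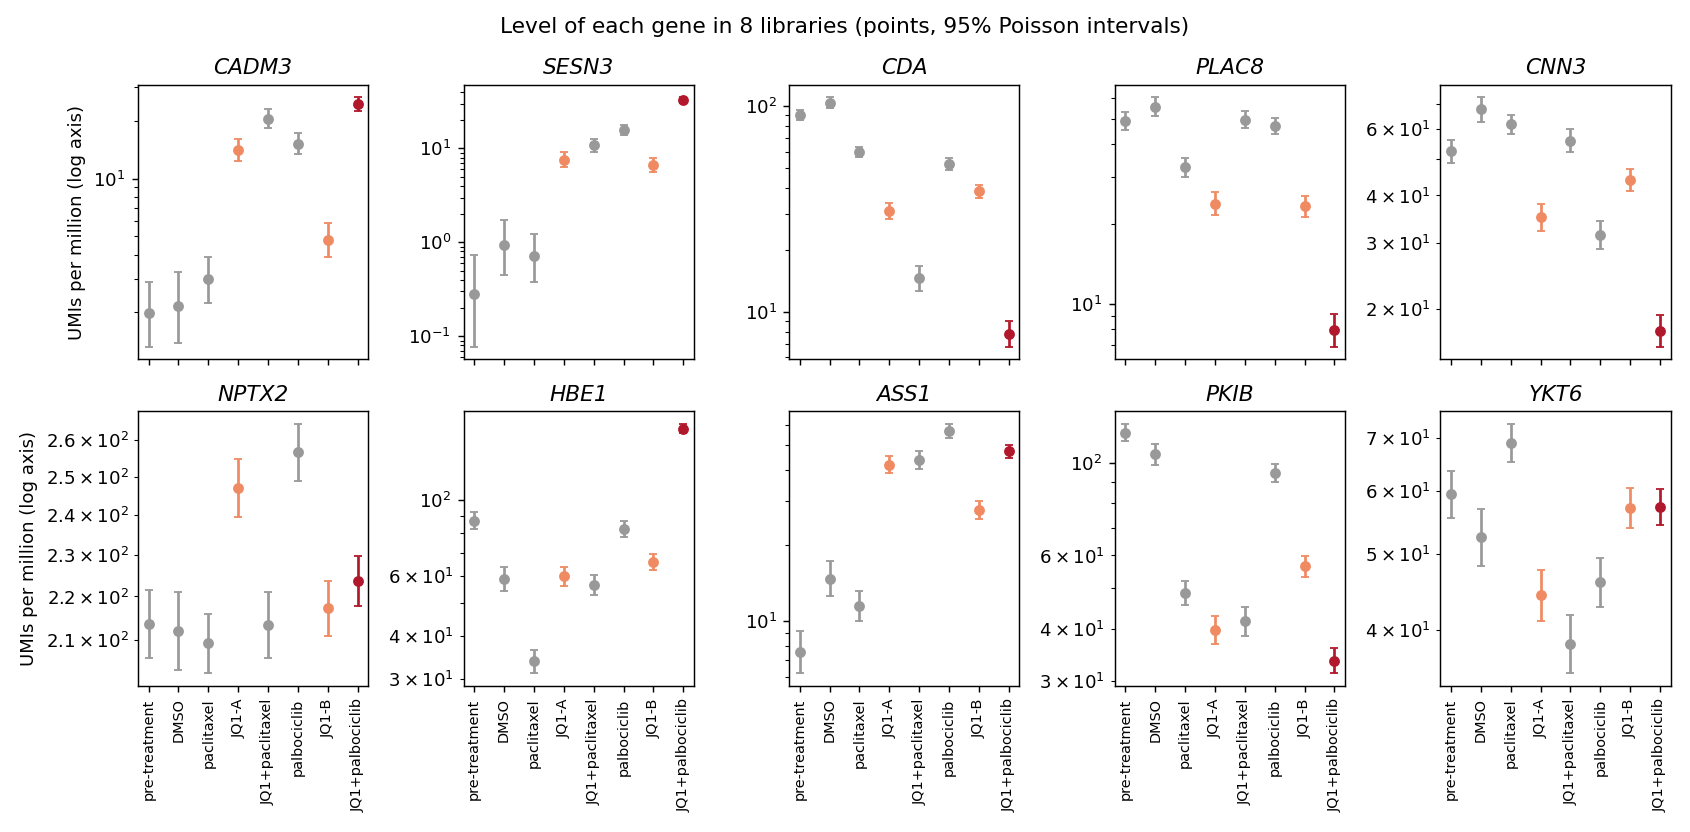
Level of each gene in CPM (log axis) in the 8 libraries, with 95% Poisson intervals as bars; JQ1+palbociclib is dark red, the JQ1 libraries are orange and the other libraries grey. *SESN3* runs from 0.284 CPM in pre-treatment to 32.6 CPM in JQ1+palbociclib and *CDA* from 104 CPM in DMSO to 7.84 CPM, whereas *NPTX2* stays between 209 and 257 CPM.

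Across all 4572 genes at 20 CPM, 20 (0.437%) were at least 2-fold higher and 6 (0.131%) at least 2-fold lower in JQ1+palbociclib than in both JQ1 libraries. *SESN3* and *HBE1* were among the former and *CDA* and *PLAC8* among the latter; *CNN3* lay at the limit and *CADM3* inside it. Apart from *HBE1*, picked on differences between cells, these members were picked from this contrast. The counts therefore describe the choice, and nothing is read from them.

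**Figure D2:**
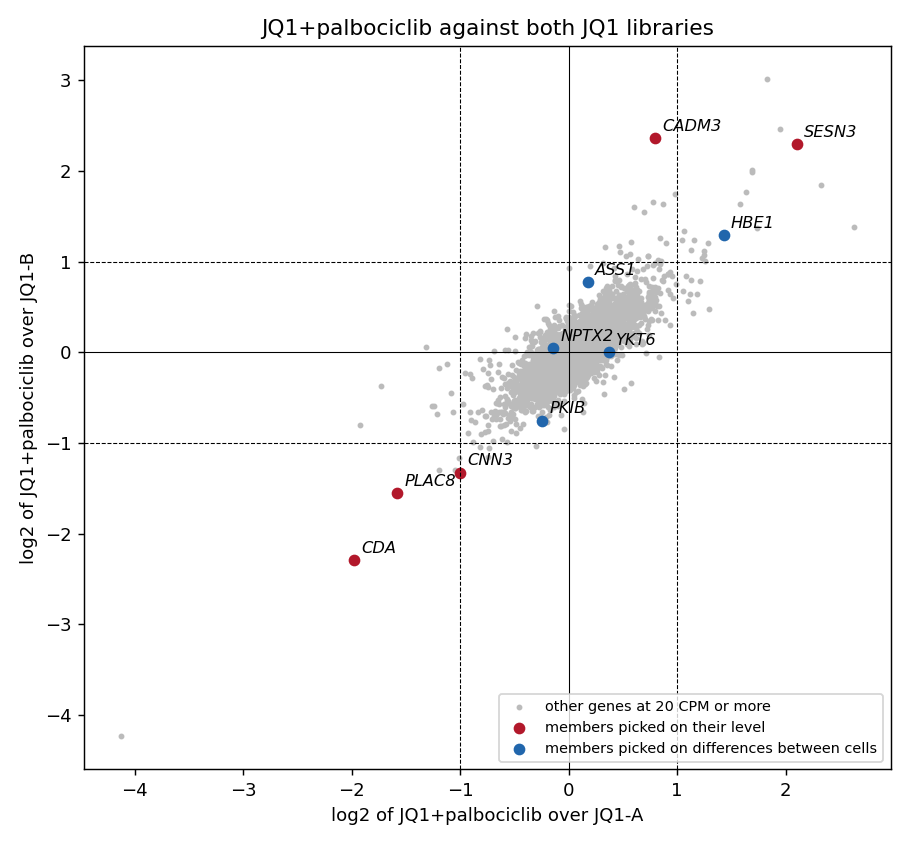
Log2 ratio of JQ1+palbociclib to JQ1-A (horizontal) and to JQ1-B (vertical) for genes at 20 CPM or more in 1 of the 3 libraries; dashed lines mark 2-fold. *SESN3* (4.29 and 4.90 times) and *HBE1* (2.69 and 2.44 times) lie beyond 2-fold on both axes, *CADM3* on the vertical axis alone, and *NPTX2* and *YKT6* lie among the bulk of genes.

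The other members were picked as markers of cells of JQ1+palbociclib, and none was 2-fold apart in level from both JQ1 libraries. *ASS1* (chr9:133320348-133376661, plus strand) was at 7.59 CPM in pre-treatment, 14.8 CPM in DMSO, 11.6 CPM in paclitaxel, 41.8 CPM in JQ1-A, 43.6 CPM in JQ1+paclitaxel, 56.9 CPM in palbociclib, 27.7 CPM in JQ1-B, with 47.2 CPM in JQ1+palbociclib. As with *SESN3*, every library exposed to JQ1 or palbociclib lay above the 3 that were not. Here palbociclib alone was highest, and JQ1+palbociclib was 0.829 times its level (0.760 to 0.905). A UMI was seen in 34.7% of thinned JQ1+palbociclib cells (31.7 to 37.7; 54.0% with all UMIs) and in 5.96% of pre-treatment cells.

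*PKIB* (chr6:122793062-123047518, plus strand) was at 118 CPM in pre-treatment, 105 CPM in DMSO, 48.7 CPM in paclitaxel, 39.8 CPM in JQ1-A, 41.8 CPM in JQ1+paclitaxel, 94.6 CPM in palbociclib, 56.5 CPM in JQ1-B, with 33.5 CPM in JQ1+palbociclib. The 3 highest libraries were pre-treatment, DMSO and palbociclib. JQ1+palbociclib was lowest, at 0.843 times the level of JQ1-A (0.759 to 0.936) and 0.593 times that of JQ1-B (0.541 to 0.649). Shares of thinned cells ran from 21.6% in JQ1+palbociclib (19.1 to 24.4; 32.0% with all UMIs) to 52.8% in DMSO. Pre-treatment, highest in level, had 47.2%, and palbociclib 51.9%. The other inhibitors of protein kinase A did not set JQ1+palbociclib apart, with *PKIG* at 41.2 CPM there and 33.6 to 62.3 CPM elsewhere.

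*NPTX2* (chr7:98246597-98259181, plus strand) was the most abundant member and varied least. Its levels were 214 CPM in pre-treatment, 212 CPM in DMSO, 209 CPM in paclitaxel, 247 CPM in JQ1-A, 213 CPM in JQ1+paclitaxel, 257 CPM in palbociclib, 217 CPM in JQ1-B, with 224 CPM in JQ1+palbociclib, which lay between the JQ1 libraries. Between 70.4% and 82.0% of thinned cells had a UMI.

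*YKT6* (chr7:44240558-44253893, plus strand) was at 59.4 CPM in pre-treatment, 52.4 CPM in DMSO, 69.0 CPM in paclitaxel, 44.3 CPM in JQ1-A, 38.4 CPM in JQ1+paclitaxel, 46.0 CPM in palbociclib, 57.1 CPM in JQ1-B, with 57.3 CPM in JQ1+palbociclib. The ratio of JQ1+palbociclib to JQ1-B was 1.0 (0.927 to 1.09), and to JQ1-A it was 1.29 (1.18 to 1.42).

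A test that did not use JQ1+palbociclib asked whether the 5 members picked on cells differ with JQ1. The remaining 7 libraries, 3 with JQ1 and 4 without, were fitted with edgeR, with a term each for JQ1, palbociclib and paclitaxel, which left 3 residual degrees of freedom. Of 9213 genes tested, 21.6% were called higher and 23.5% lower with JQ1 at an adjusted p under 0.05. *ASS1* rose with JQ1, by 2.0 ± 0.25 on the log2 scale (fit ± SE). Its Benjamini-Hochberg adjusted p was 0.00100 from edgeR's quasi-likelihood test over all genes. *NPTX2* had 0.34 ± 0.10 (adjusted p = 0.0214, same edgeR fit) with the TMM scaling factors, but 0.09 ± 0.10 (adjusted p = 0.457, edgeR) on library totals, so that its call rests on the scaling. *PKIB* fell by 0.65 ± 0.22 (adjusted p = 0.0423, same edgeR fit). *HBE1* had 0.34 ± 0.22 (adjusted p = 0.233, same edgeR fit) and *YKT6* -0.13 ± 0.16 (adjusted p = 0.541, same edgeR fit), and neither was called. Thus 2 of these 5 members were called higher and 1 lower, with no reading of so few genes against the shares of all genes. TMM factors, computed with all 8 libraries, were 0.902 to 0.965 in the libraries with JQ1 and 1.0 to 1.10 in those without. On library totals, an alternative chosen after the data were seen, the median over all genes was -0.25, and 1022 genes were called higher and 3695 lower (21.7% of calls higher, against 47.9% with TMM). *ASS1* (1.74 ± 0.25, adjusted p = 0.000767, edgeR) and *PKIB* (-0.89 ± 0.22, adjusted p = 0.00868, edgeR) were called there too. Within the JQ1+paclitaxel experiment alone, *ASS1* kept its call (2.0 ± 0.22, adjusted p = 6.1e-06 from edgeR), while *NPTX2* (0.42 ± 0.17, adjusted p = 0.0687 from edgeR) and *PKIB* (-0.52 ± 0.24, adjusted p = 0.106 from edgeR) did not, and *HBE1* passed (0.68 ± 0.21, adjusted p = 0.0212 from edgeR). Leaving out the pre-treatment, DMSO or JQ1-A library ended the calls of both *NPTX2* and *PKIB*, with adjusted p from 0.0545 to 0.184 in the edgeR fits, and leaving out palbociclib or JQ1-B ended that of *PKIB* (adjusted p = 0.0538 and 0.0821, edgeR). *HBE1* passed without the pre-treatment library (0.62 ± 0.18, adjusted p = 0.0359, edgeR). The palbociclib experiment had no vehicle, so a difference of that experiment and the response to its drugs cannot be told apart. For the members picked on their ratio to the JQ1 libraries, the fitted JQ1 coefficients, given without a p, were 3.99 for *SESN3*, 2.68 for *CADM3*, -1.41 for *CDA*, -0.32 for *PLAC8* and -0.20 for *CNN3* on the log2 scale.

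The level in the combination was set beside the sum of the separate differences, on the log2(CPM + 1) scale. The sum took the palbociclib level plus the mean of the JQ1 libraries minus the mean of pre-treatment and DMSO. *HBE1* was 1.14 above its sum (161 CPM against 72.4 CPM), and *YKT6* was 0.46 above. The other 8 members lay below theirs. *SESN3*, higher with each drug, had a sum of 85.8 CPM and was 1.37 below it, *CADM3* was 0.95 below and *ASS1* was 1.86 below. With JQ1-B or JQ1-A alone in the sum, *CADM3* was 0.26 or 1.64 below, *PKIB* 0.50 or 0.01 below, *CNN3* 0.38 or 0.06 below and *NPTX2* 0.23 or 0.41 below, and *YKT6* was 0.28 or 0.64 above, so that these values depend on 1 library. *CDA* and *PLAC8* also lay below their sums, of 18.4 and 21.2 CPM, so that the deficit in the combination was larger than the separate deficits added. These differences rest on single libraries, and for *SESN3* the sum depends on the pseudocount of 1 CPM, since pre-treatment cells had 4 UMIs.

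The members also differed in how unevenly they were spread over the cells of JQ1+palbociclib. Excess variance of thinned counts over Poisson was ranked among 6604 genes averaging at least 0.1 UMI per cell. *PKIB* lay at the 99.4th percentile, *CADM3* at 98.1, *CNN3* at 97.8, *HBE1* at 97.7, *ASS1* at 93.6, *SESN3* at 86.2, *NPTX2* at 83.0 and *YKT6* at 72.4, while *CDA* and *PLAC8* fell below the minimum. *HBE1* and *PKIB* were also uneven elsewhere, at percentiles of 95.5 to 98.9 and 90.6 to 99.0 in the other 7 libraries. Where ranked elsewhere, *CADM3* was at 96.7 (JQ1-A) to 98.8 (JQ1+paclitaxel) and *CDA* at 91.8 (pre-treatment) to 99.2 (JQ1-B). *ASS1* ran from 74.4 (palbociclib) to 98.2 (paclitaxel), and *CNN3* from 61.8 (JQ1-A) to 92.3 (JQ1-B). *NPTX2* ran from 77.5 (JQ1-B) to 88.3 (JQ1+paclitaxel), and *YKT6* from 14.1 (JQ1-B) to 70.2 (palbociclib). *SESN3* had 71.8 in palbociclib and 90.3 in JQ1+paclitaxel. *PLAC8* ranked at 98.6 to 99.9 wherever it was ranked. In JQ1-A its most uneven value coincided with a cell of 13 UMIs, the highest thinned count of *PLAC8* in any library. The tenth of JQ1+palbociclib cells with most UMIs of *SESN3* held 50.7% of them, against 67.3% for *PKIB*.

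To ask which members shared cells, the UMIs of every cell were divided at random into parts A and B. Cells were called high for a gene by the whole-number limit in part A, thinned to 5000 UMIs, that came nearest to 20% of cells, and levels were then measured in part B. Because whole counts are coarse, the share of JQ1+palbociclib cells called high ran from 3.08% for *PLAC8* to 23.8% for *YKT6*. For the members picked on cells, both parts hold UMIs that the choice used, so the part B level of the same gene is a description. Its ratio to the other cells was 12 (7.45 to 19.0) for *PLAC8*, 5.65 (3.02 to 9.91) for *CDA*, 5.44 (4.40 to 6.71) for *PKIB*, 3.81 (3.48 to 4.17) for *HBE1*, 3.08 for *CNN3*, 2.71 for *CADM3*, 2.23 for *NPTX2*, 1.95 for *ASS1*, 1.80 for *SESN3* and 1.29 (1.10 to 1.52) for *YKT6*. *SESN3*, the member with the largest ratio between libraries, was thus among the least divided between cells.

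*HBE1*-high cells, 210 of 975, had 381 CPM of *HBE1* in part B against 99.8 CPM in the other cells. In these cells *CADM3* was at 42.3 CPM against 18.3 CPM (ratio 2.31, 1.80 to 2.95) and *ASS1* at 69.7 CPM against 39.2 CPM (ratio 1.78, 1.48 to 2.13). The sharing of *HBE1* with *ASS1* follows from their choice as leaders of the same cells. *CADM3* was picked on its level, and of *CADM3*-high cells 36.0% were *HBE1*-high against 21.5% of all cells, and 19.0% of *HBE1*-high cells were *CADM3*-high against 11.4% of all. Lower in *HBE1*-high cells were *CNN3* (ratio 0.474, 0.302 to 0.716), *PKIB* (0.475, 0.337 to 0.655), *YKT6* (0.624) and *NPTX2* (0.786). *SESN3* did not separate from the rest, at a ratio of 1.17 (0.914 to 1.48) there.

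*PKIB*-high cells, 137 of 975, showed another set. *MMP1*, an interstitial collagenase, was at 154 CPM against 66.4 CPM in the other cells (ratio 2.32, 2.0 to 2.68) and *SESN3* at 45.9 CPM against 29.6 CPM (ratio 1.55, 1.19 to 2.01), whereas *CADM3* (0.544), *ASS1* (0.658), *HBE1* (0.666) and *NPTX2* (0.722) were lower. *MMP1* as a whole was at 80.6 CPM in JQ1+palbociclib, against 13 CPM in JQ1-A, 31 CPM in JQ1-B and 9.06 CPM in palbociclib. The 31 *CDA*-high cells had *PKIB* at 89.2 CPM against 28.9 CPM (ratio 3.09, 2.12 to 4.38). In *PKIB*-high cells *CDA* was at 6.82 CPM against 7.94 CPM (ratio 0.859, 0.413 to 1.62), from 11 UMIs in the high cells. By the part A calls, 41.9% of *CDA*-high cells were *PKIB*-high (14.1% of all), and 9.49% of *PKIB*-high cells were *CDA*-high (3.18% of all). *CDA* was higher in *PKIB*-high cells of pre-treatment (1.42), DMSO (1.80), paclitaxel (1.33) and JQ1+paclitaxel (1.87). JQ1-A, JQ1-B and palbociclib set no direction for it. The 75 *CNN3*-high cells had *CDA* at 24.6 CPM against 6.30 CPM (ratio 3.90, 2.34 to 6.29). *CADM3*-high cells (111) had *PKIB* at 8.32 CPM against 33.6 CPM (ratio 0.247, 0.122 to 0.448).

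*NPTX2*-high cells, 126 of 975, were low in *PKIB* (8.97 CPM against 33.9 CPM, ratio 0.265, 0.140 to 0.459), *HBE1* (0.599) and *SESN3* (0.667), and higher in *SLC7A11*, a cystine transporter (75.9 CPM against 40.7 CPM, ratio 1.86, 1.5 to 2.3). *YKT6* was at 74.5 CPM against 58.0 CPM in them (1.28, 1.04 to 1.58), a pair fixed by their choice as leaders of 1 group of cells. Median mitochondrial shares were 7.64% in *HBE1*-high cells against 7.08% in the other cells, and 7.75% in *ASS1*-high cells against 7.05%, with 2599 CPM of G2/M genes in the latter against 3247 CPM. The *NPTX2*-high cells had a median mitochondrial share of 7.93% against 7.02% and a summed level of G2/M genes of 3788 CPM against 3035 CPM, and *CADM3*-high cells had 2234 CPM of G2/M genes against 3238 CPM. Median UMIs per cell of the high cells ran from 20993 (*SESN3*) to 25064 (*CNN3*). The part of these differences in the sharing of cells was not tested.

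**Figure D3:**
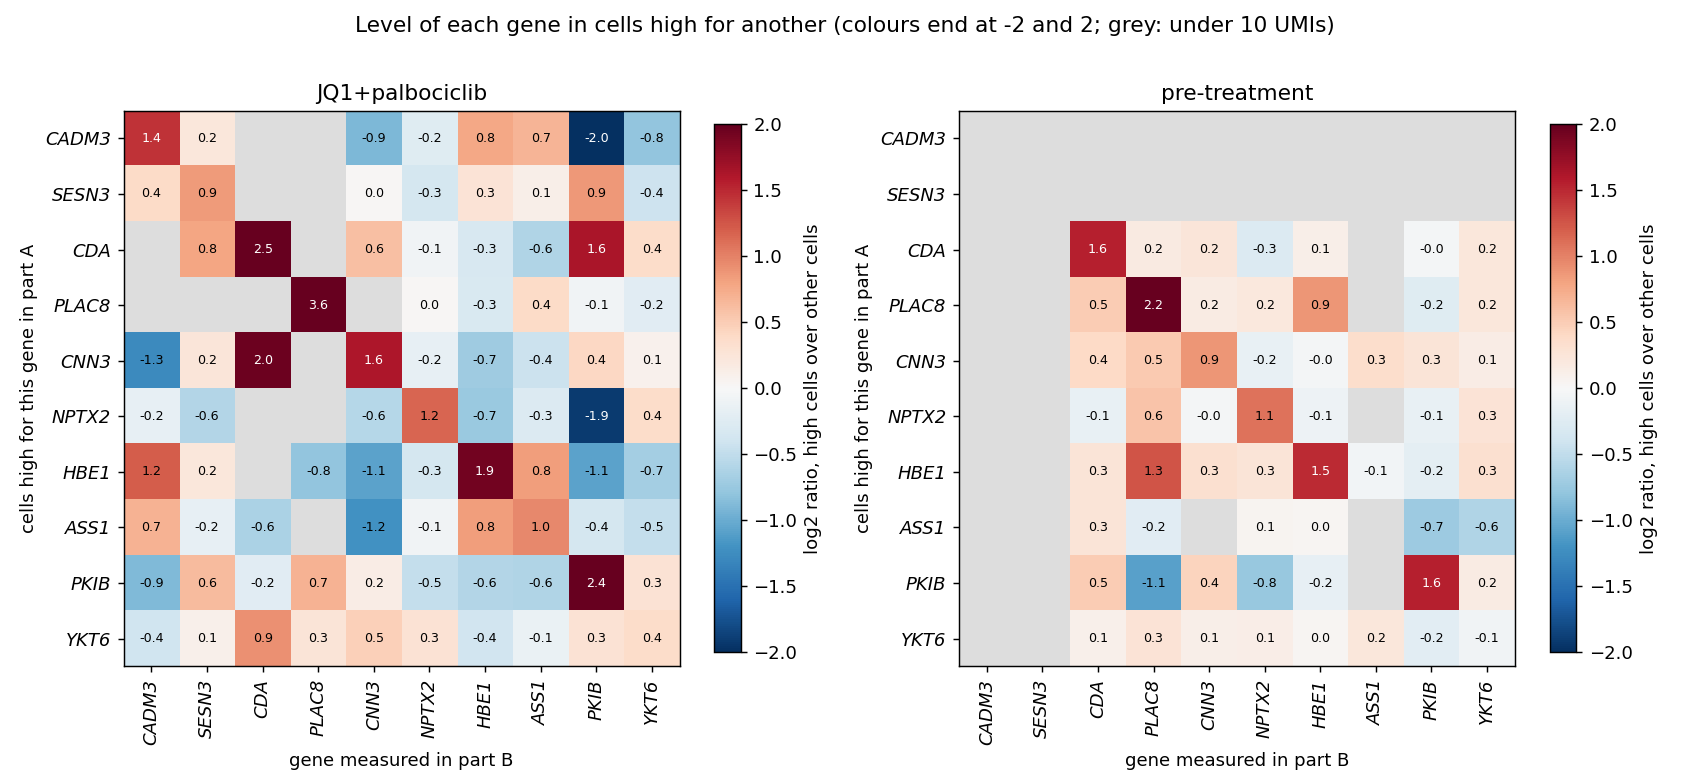
Log2 ratio of the part B level of each gene (columns) in cells high for a gene in part A (rows) to the other cells, in JQ1+palbociclib (left) and pre-treatment (right). Colours end at -2 and 2, and grey marks fewer than 10 UMIs on either side. In JQ1+palbociclib *HBE1*, *CADM3* and *ASS1* are red in each other's rows, and *PKIB* is blue in the *CADM3* and *NPTX2* rows. In pre-treatment *HBE1* and *PLAC8* are red in each other's rows (2.40 and 1.85 times), and *CDA* is paler red in the *PKIB*, *PLAC8* and *CNN3* rows (1.42, 1.42 and 1.31 times).

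Pre-treatment cells were divided differently from JQ1+palbociclib cells for some pairs, and other libraries shared parts of that division. *HBE1*-high cells there, 161 of 587, had *PLAC8* at 86.4 CPM against 36.0 CPM (ratio 2.40, 1.94 to 2.98), and *PLAC8*-high cells had *HBE1* at 145 CPM against 78.7 CPM (ratio 1.85, 1.54 to 2.20). In JQ1+palbociclib the first of these ratios was 0.576 (0.294 to 1.04), from 13 UMIs of *PLAC8* in the high cells. *HBE1* was also higher in *PLAC8*-high cells of JQ1-A (2.12, 1.59 to 2.77), JQ1-B (1.37, 1.07 to 1.75) and palbociclib (1.28, 1.05 to 1.55). The intervals of DMSO, paclitaxel, JQ1+paclitaxel and JQ1+palbociclib set no direction for it. Measured the other way, *PLAC8* in *HBE1*-high cells was higher in palbociclib (1.39, 1.12 to 1.73) but lower in JQ1+paclitaxel (0.641, 0.471 to 0.858). JQ1-A (1.20, 0.844 to 1.69), JQ1-B (0.990, 0.718 to 1.35), DMSO and paclitaxel set no direction for that ratio. *ASS1* was at 6.53 CPM in *HBE1*-high pre-treatment cells and at 6.79 CPM in the others, and *CADM3* at 2.01 and 2.0 CPM, each from few UMIs. *PKIB*-high pre-treatment cells were low in *PLAC8* (ratio 0.470, 0.30 to 0.706) and in *NPTX2* (0.591, 0.490 to 0.707), and their *MMP1* was 30.6 CPM against 27.4 CPM (1.12, 0.731 to 1.66). *PLAC8* was also low in *PKIB*-high cells of JQ1-A (0.343), paclitaxel (0.579) and JQ1-B (0.705), with no direction in the other libraries. *NPTX2* was also low in those of JQ1+palbociclib (0.722), DMSO (0.788), palbociclib (0.873) and JQ1-B (0.900), with no direction in the rest. *SESN3* and *CADM3* had 1 and 4 high cells before treatment, too few to follow.

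The level of *CADM3* in *HBE1*-high cells relative to the other cells was 1.06 (0.694 to 1.56) in JQ1+paclitaxel and 1.03 (0.673 to 1.54) in palbociclib. For JQ1-A it was 1.08 (0.671 to 1.67) and for JQ1-B 0.907 (0.403 to 1.86). Pre-treatment, DMSO and paclitaxel had 3 to 6 *CADM3* UMIs in these cells, and their intervals (0.230 to 3.49, 0.211 to 5.15 and 0.717 to 5.80) set no direction. *HBE1* in *CADM3*-high cells was at 1.71 (1.51 to 1.92) in JQ1+palbociclib, and below the other cells in JQ1+paclitaxel (0.576, 0.360 to 0.878) and JQ1-B (0.425, 0.155 to 0.929). The Pearson correlation of the 2 genes, on log2(thinned UMIs + 1), across 975 JQ1+palbociclib cells was 0.246 (Spearman 0.248), and it was -0.04 to 0.02 elsewhere. At a UMI each, 147 cells had both genes where independence would give 106. For *HBE1* and *ASS1* the correlation was 0.215 in JQ1+palbociclib, 0.0789 in JQ1-B, 0.0690 in JQ1-A, 0.016 in pre-treatment and -0.111 in JQ1+paclitaxel. *ASS1*-high cells had more *HBE1* not only in JQ1+palbociclib (ratio 1.79, 1.62 to 1.98) but also in paclitaxel (1.85, 1.24 to 2.66), JQ1+paclitaxel (1.66, 1.3 to 2.1), JQ1-A (1.41, 1.13 to 1.75) and JQ1-B (1.33, 1.07 to 1.64). In the other direction, *ASS1* in *HBE1*-high cells was at 0.769 (0.559 to 1.04) in JQ1+paclitaxel and 1.38 (1.05 to 1.81) in JQ1-B. The correlation of *NPTX2* and *YKT6* was 0.144 in JQ1+palbociclib, 0.101 in pre-treatment and -0.02 to 0.08 in the other libraries. *MMP1* was higher in *PKIB*-high cells of palbociclib (ratio 4.46, 2.77 to 7.34), JQ1+paclitaxel (3.87, 1.95 to 7.44), paclitaxel (2.02, 1.60 to 2.53), JQ1-A (1.88, 1.12 to 3.06) and JQ1-B (1.52, 1.17 to 1.95) as well. In DMSO its ratio was 0.672 (0.237 to 1.55).

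Over all 45 pairs of members the correlations were weak. They ran from -0.135 to 0.246 in JQ1+palbociclib, with 6 pairs above 0.1 and 9 below -0.1, and from -0.177 (*PLAC8* with *PKIB*) to 0.213 (*PLAC8* with *HBE1*) in pre-treatment, with 4 and 2. The cells of a library share its depth, its pool of cultures and its free RNA, and no p was computed.

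**Figure D4:**
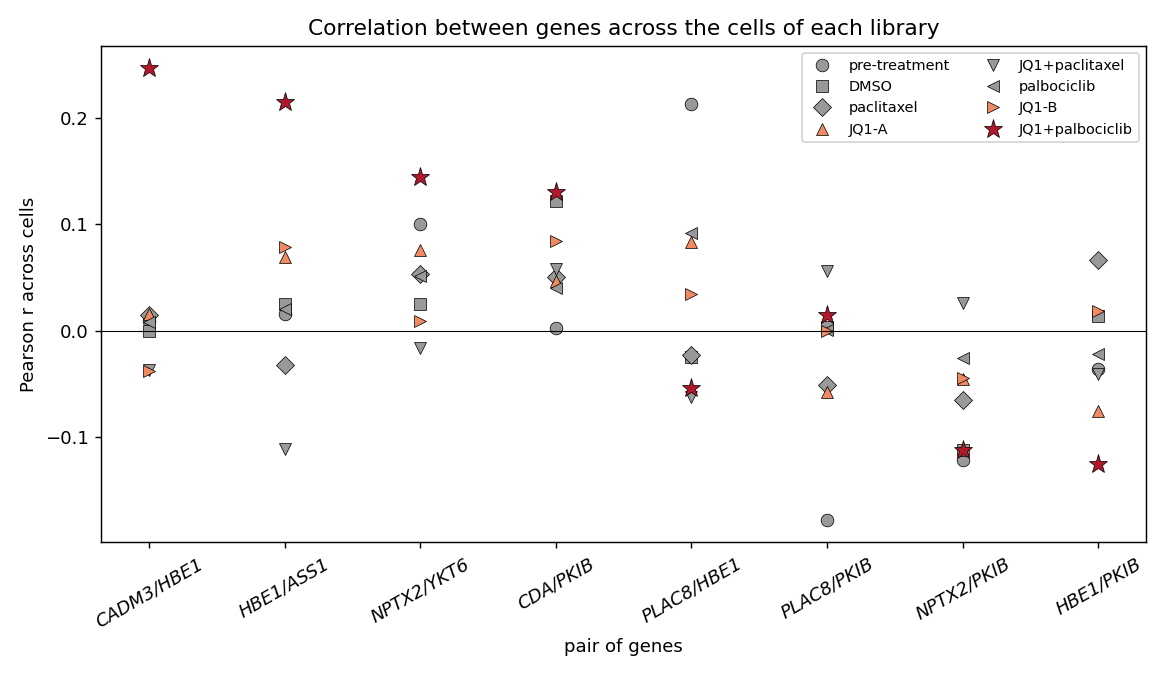
Pearson correlation across cells, thinned to 10000 UMIs, of 8 pairs of genes in each of the 8 libraries (JQ1+palbociclib as red stars, JQ1 libraries orange, others grey). JQ1+palbociclib stands highest for *CADM3* with *HBE1* (0.246) and *HBE1* with *ASS1* (0.215), and pre-treatment for *PLAC8* with *HBE1* (0.213).

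The genes most like a member across JQ1+palbociclib cells differed between members. Among 6596 genes, the highest correlations with *HBE1* were those of *RPS3* (0.379), *RPS25* (0.363) and GS1-600G8.5 (0.360), and the lowest was that of the ferritin light chain *FTL* (-0.378). *CADM3* had *RPS14* (0.236), *RPS3* (0.232) and *GNB2L1* (0.215) at the top, which encode ribosomal proteins and a ribosome-bound scaffold, and *FTL* at the bottom (-0.241). *PKIB* had *RPS14* lowest, at -0.421, and *MMP1* (0.363), *SH3BGRL3* (0.239) and *C12orf75* (0.237) highest. *NPTX2* was closest to the mitochondrial transcripts *MT-ND1* (0.271) and *MT-ND2* (0.247) and the metallothionein *MT1X* (0.251), and *YKT6* to *MT-ND1* (0.182), *MTDH* (0.180) and *RPS12* (0.178). *ASS1* was closest to *NR4A1* (0.206), *ATP5E* (0.203) and GS1-600G8.5 (0.191), *SESN3* to *RPL39* (0.191), *BST2* (0.167) and RP11-669N7.2 (0.157), and *CNN3* to *SH3BGRL3* (0.189), *H2AFJ* (0.188) and *S100A4* (0.173). For *CDA* (highest *GJA1*, 0.136) and *PLAC8* (highest *DHX16*, 0.157) counts were sparse and no likeness is drawn.

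Over the 8 libraries, levels on the log2(CPM + 1) scale were compared with those of 4425 genes at a mean of 20 CPM. *SESN3* was most like *AGRN* and *COL5A1*, matrix genes (each r = 0.984), *CADM3* like *PRKCSH* (0.987) and *TGFBI* (0.972), and *ASS1* like *ZC3H11A* (0.985) and *SPARC* (0.983). *TGFBI*, a secreted matrix protein, ran from 180 CPM in pre-treatment to 707 CPM in JQ1+palbociclib. *CDA* was most like *MPC1* (0.985) and *LDOC1* (0.963), *PLAC8* like *NDUFS4* (0.975) and *APOC1* (0.963), *CNN3* like *RSRC2* (0.977) and *TXN2* (0.973), and *PKIB* like *CCDC53* (0.976) and *SERPINB6* (0.967). *APOC1*, an apolipoprotein, was at 3.75 CPM in JQ1+palbociclib, below 8.28 CPM in JQ1-B and below 10.4 CPM in JQ1-A, and at 39.0 CPM in JQ1+paclitaxel, so that it shared with *PLAC8* the high value under JQ1+paclitaxel. *HBE1* was most like *GPR116* (0.949) and *TMEM41B* (0.914), *YKT6* like *TRA2A* (0.988) and *SEPW1* (0.958), and *NPTX2*, which varied least, like *VEGFA* (0.886) and *TOMM7* (0.885). With 8 points and so many candidate genes, high values are usual, and these are descriptions.

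Genes near a member had ratios close to those of all genes. The 20 nearest genes at a mean of 20 CPM were taken, among the 92.7% of such genes with a single position. Their median log2 ratio of JQ1+palbociclib to JQ1-A and JQ1-B was 0.06 and -0.03 around *SESN3*, where the member had 1.97 and 2.13, and -0.08 and -0.14 around *CDA*, where it had -1.85 and -2.16. Around *HBE1* the medians were highest, 0.31 and 0.16, beside 1.41 and 1.28 for *HBE1* itself. Over all 4433 genes the medians were 0.03 and -0.03. Of the 200 neighbours of the 10 members, 1 was 2-fold apart from both JQ1 libraries in the same direction, beside *SESN3*. *NPTX2* lay between the JQ1 libraries, so its 20 neighbours could not count, and the direction of *YKT6* was a ratio of 1.003. Of the 4572 genes at 20 CPM in the 3 libraries, 0.437% were 2-fold higher and 0.131% lower. Nothing is therefore read from this count. In *NPTX2*-high cells the 20 neighbours of *NPTX2* were 1.21 times as high as in the other cells and the chromosome 7 share of UMIs was 2.94% against 2.68%. That neighbour ratio was also above 1 in each of the other 7 libraries (1.02 to 1.15), and the chromosome 2 share differed as much (5.92% against 5.35%). *YKT6*-high cells had a chromosome 7 share of 2.92% against 2.66%, and so did the cells high for *PLAC8*, a gene of chromosome 4 (2.99% against 2.72%). Other chromosomes differed by larger ratios. The chromosome 13 share was 1.15% against 1.41% in *HBE1*-high cells, 1.18% against 1.39% in *ASS1*-high cells and 1.56% against 1.34% in *CNN3*-high cells. *NPTX2* and *YKT6* lie on chromosome 7, and the part of the chromosome 7 share in their pairing was not tested.

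Lists of genes related to each member were set beside all genes. Of the non-members at 20 CPM in the 10 lists, 0 to 11 in each list, *CADM1* alone was 2-fold higher than both JQ1 libraries and none was 2-fold lower. Over all 4572 genes the shares were 0.437% and 0.131%, so these counts are too small to read against them. With JQ1, over the 7 libraries, 2 of 22 tested genes of pyrimidine salvage and nucleotide metabolism were called higher and 11 lower, with a median log2 fold change of -0.38 against 0.00 over all genes. Over all genes 21.6% were called higher and 23.5% lower, beside which the counts of these short lists are to be read. In arginine synthesis and use 1 of 11 was called higher and 4 lower (median -0.16), and in the list of sestrins, FOXO factors and amino acid sensing 4 of 11 were higher (*FOXO1*, *FOXO3*, *DDIT4* and *MIOS*) and 2 lower (median 0.01). In the nectin list 4 of 8 were higher and 1 lower (*PVRL2*), with a median of 0.21. Of the 4, *CADM1* alone encodes a nectin-like molecule, and *MLLT4*, *EPB41L1* and *EPB41L2* encode cytoplasmic proteins. In the protein kinase A list 4 of 12 were higher and 4 lower (median 0.05). Among contractile proteins 2 of 11 were higher and 2 lower (median -0.05). In the Golgi SNARE list 2 of 15 were higher (*STX16*, and *NSF*, which is not a SNARE) and 5 lower (median -0.05). *PTX3*, a pentraxin like *NPTX2*, fell by 1.36 ± 0.19 (adjusted p = 0.00145, edgeR), from 52.6 CPM in pre-treatment to 12.4 CPM in JQ1-A. *CNFN*, of the *PLAC8* family, rose by 1.40 ± 0.32 (adjusted p = 0.00881, edgeR), and no globin list member besides *HBE1* was tested. On library totals both kept direction and call (-1.61 and 1.15), the nucleotide list had 1 called higher and 15 lower, and the nectin list turned to 1 higher and 3 lower (median -0.04), the *SESN3* list to 2 and 3 (median -0.24) and the protein kinase A list to 2 and 4 (median -0.20). *SESN1* and *SESN2* did not pass 4.91 CPM in any library.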

How the data were processed

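Single-cell RNA-seq of 8 SUM159 libraries was deposited by the authors as whole-number UMI counts per gene and cell. Per the study's methods, libraries were made with 10x Genomics 3′ chemistry, reads were aligned to hg19 and counted with Cell Ranger, and genes detected in at least 3 cells were kept. The submitters' processing notes also name Seurat. All 5738 deposited cells were used, of which 5575 (97.2%) pass the study's filter of 1 to 15% mitochondrial UMIs and at least 2000 genes. Doublets were not called. Of the cell barcode sequences, 13 occurred in more than 1 library, in 26 cells (0.453%). A level is the sum of a gene's UMIs per 1000000 UMIs of its library (CPM). For shares and correlations cells were thinned to 10000 UMIs, which left out 210 cells.

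Groups were taken from the sample labels. The JQ1 term was tested with edgeR 4.0.16 in R 4.3.3 (TMM scaling, quasi-likelihood test, genes at 5 CPM or more in at least 2 of the 7 libraries, Benjamini-Hochberg adjustment). On simulated counts for this comparison (8961 genes tested), 199 of 199 genes changed 4-fold were called, with 18 unchanged genes. The simulation changed few genes, up and down alike, at a fixed spread. It cannot speak to smaller differences, nor to scaling when many genes change. Each group was 1 library, apart from JQ1 with 2, so p-values measure the spread between libraries left after the 3 drug terms. No other comparison was tested. Alternatives were library totals and RLE factors in place of TMM, DESeq2 1.42.0, other filters, sets of cells and of libraries, other thinning and another random division. Lists of S and G2/M genes came from Seurat 5.3.0. Other steps used Python 3.11.15, numpy 2.4.6, scipy 1.17.1, pandas 2.3.3 and matplotlib 3.10.9.

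The genes and lists were chosen with earlier results of these data known. Named besides the 10 members were, for each of them, the 2 genes most like it over libraries and the 3 most like it over JQ1+palbociclib cells, non-members of 10 related lists that were 2-fold apart from both JQ1 libraries, and paralogs. *MMP1*, *SLC7A11*, *FTL*, *RPS14* as lowest, and the genes next to members in rank were added after their values were seen. Gene positions were read from the GENCODE annotation lifted to GRCh37.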

Additional observations from a re-analysis of the deposited data

Results flagged for a closer look

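The drug added to JQ1 went with opposite differences in the pair of experiments for *PLAC8* and *CNN3*. *PLAC8* in JQ1+paclitaxel was 2.08 times its level in JQ1-A (1.83 to 2.36), and in JQ1+palbociclib it was 0.341 times its level in JQ1-B (0.287 to 0.404). *CNN3* was 1.60 times as high in JQ1+paclitaxel as in JQ1-A (1.43 to 1.78), and in JQ1+palbociclib it was 0.399 times as high as in JQ1-B (0.354 to 0.448). Each value rests on 1 library against 1, the intervals cover counting error only, and the difference between the experiments was not tested.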

How the results depend on the processing

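Libraries were not replicated within a condition other than JQ1, so outside the edgeR fit the comparisons of levels and of cells cover counting error only, and rare transcripts limit them most: *SESN3* and *CADM3* before treatment, and *CDA* and *PLAC8* in JQ1+palbociclib. No paired analysis was possible because each group held 1 library, apart from JQ1, whose letters mark the experiment and match no replicate number given for another group.

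Genes called for JQ1 numbered 4149 (1988 higher, 2161 lower), 4717 (1022 higher, 3695 lower) on library totals, chosen after the data were seen, 3743 with DESeq2, 5443 without a filter and 3488 with all 8 libraries. Within the JQ1+paclitaxel experiment 2682 were called, 1295 of them lower. Leaving out a library gave 2273 (without JQ1-A) to 4145 in all, 1066 (without JQ1-A) to 2169 higher and 1207 (without JQ1-A) to 1977 lower. The 3 called members became 1 to 3 when a library was left out, 1 of them without DMSO or JQ1-A. *ASS1* was called in 15 of 15 settings (adjusted p from 2.0e-13 to 0.0281), *NPTX2* in 8 (0.00859 to 0.457), *PKIB* in 9 (0.000768 to 0.184), *HBE1* in 2 (0.0212 to 0.954) and *YKT6* in 0 (0.0978 to 0.980), all from the edgeR or DESeq2 fits. The log2 difference of *YKT6* ran from -0.29 to 0.09 over libraries left out and was 0.0861 without paclitaxel and 0.0910 without JQ1+paclitaxel.

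The 26 genes set apart from both JQ1 libraries (20 higher, 6 lower) became 9 (7 and 2) at 3-fold and 95 (60 and 35) at a minimum of 5 CPM. TMM sizes kept 23 of the 26 and brought *CNN3* past 2-fold. The ratio of *CDA* to JQ1-A was 0.328 with thinned cells in equal numbers, and the other 35 ratios computed under alternatives moved less than counting error.

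Of the ratios between high and other cells under alternatives, 356 stayed within counting error, 66 moved beyond it in the same direction or without a direction to keep, and 7 crossed 1. Another random division alone moved 37 and left 100. With high cells nearest to 10%, *PKIB* in *CNN3*-high pre-treatment cells was 0.943. With another random division, *CDA* and *YKT6* in *HBE1*-high pre-treatment cells were 0.979 and 0.911, *PKIB* in *ASS1*-high pre-treatment cells 1.09, and in JQ1+palbociclib *CNN3* and *NPTX2* in *CADM3*-high cells 1.06 and 1.02 and *CNN3* in *YKT6*-high cells 0.615. For all of these the cause was not tested.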
